A study of Mus musculus with 24 samples.

Results

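The 8 genes described here encode transcription factors of the trophectoderm: Cdx2, Gata3, Tfap2c, Tfap2a, Tead4, Eomes, Klf5 and Id2. They were taken by gene symbol from the platform annotation of the array, and are 8 of the 19938 genes with a value and 8 of the 13311 genes bright enough to be tested. Each had 1 probe set, so each level below is the log2 intensity of a single probe set on an Affymetrix Mouse Gene 1.0 ST array. All 8 lay above the median of the whole table (2.56) on all 24 arrays.

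Mouse NMRI embryos, an outbred stock, were collected as blastocysts on day 3.5 after mating and sexed, and 1 array was hybridised per pool, a lysate of 3 sex-matched embryos with 1 mother in common. Mice of the high-fat cohort were put at 3 weeks of age on a high-fat, high-calorie diet (modified D12492) that lasted 9 weeks, while control mice ate the matching control diet. Mating took place at 12 weeks, on the control diet for every animal. The groups were embryos of lean parents, of an obese mother with a lean father, and of an obese father with a lean mother, each divided into female and male pools, with 4 arrays in each of the 6 groups. The labels name 7 high-fat and 14 control animals and do not tie pools to mothers, so some pools may share a mother, and the p-values reflect pool-to-pool spread only. The study compared the blastocyst transcriptome between these kinds of parents in each sex.

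The trophectoderm is the outer epithelium of the blastocyst, which pumps fluid into the cavity and later forms the placenta. In outer cells, apical polarity keeps the Hippo pathway off, so that YAP enters the nucleus and works with the DNA-binding factor TEAD4 to switch on Cdx2 and Gata3, while in inner cells Hippo signalling keeps YAP out and the pluripotency factors persist. TFAP2C, TFAP2A and KLF5 also act in the trophectoderm, and EOMES acts downstream and maintains trophoblast stem cells. ID2 is a helix-loop-helix protein without a DNA-binding region that blocks other helix-loop-helix factors and is an early marker of outer cells.

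Upstream sequence of 4 members is shown because 3 of them, Cdx2, Id2 and Eomes, had the widest range of levels between pools, while Gata3 had the narrowest. RefSeq's promoter table (GRCm38.p6) held 5 of the 8 members. Each line gives the 250 bases before the annotated start, 5′ to 3′ on the gene's strand, and capitals mark matches on either strand to the octamer ATGCAAAT, the TEAD motif GGAATG, the GATA motif AGATAA, the AP-2 motif GCCNNNGGC, the CCAAT box CCAAT or the TATA box TATAAA.
Cdx2, chr5:147307250-147307499, minus strand: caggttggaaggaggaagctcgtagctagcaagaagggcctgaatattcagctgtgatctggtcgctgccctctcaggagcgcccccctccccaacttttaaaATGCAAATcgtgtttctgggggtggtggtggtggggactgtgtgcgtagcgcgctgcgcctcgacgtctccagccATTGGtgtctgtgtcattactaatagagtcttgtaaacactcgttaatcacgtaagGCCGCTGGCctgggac
Id2, chr12:25096093-25096342, minus strand: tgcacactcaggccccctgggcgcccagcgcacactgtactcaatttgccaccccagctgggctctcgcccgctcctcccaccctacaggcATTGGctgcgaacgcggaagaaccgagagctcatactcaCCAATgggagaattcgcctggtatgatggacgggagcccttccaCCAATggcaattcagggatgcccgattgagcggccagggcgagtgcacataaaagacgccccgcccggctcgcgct
Eomes, chr9:118477939-118478188, plus strand: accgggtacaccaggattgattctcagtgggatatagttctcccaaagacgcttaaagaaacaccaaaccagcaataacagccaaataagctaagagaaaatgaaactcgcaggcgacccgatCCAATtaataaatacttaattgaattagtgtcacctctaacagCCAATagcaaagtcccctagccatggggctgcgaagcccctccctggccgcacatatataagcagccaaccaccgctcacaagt
Gata3, chr2:9878601-9878850, minus strand: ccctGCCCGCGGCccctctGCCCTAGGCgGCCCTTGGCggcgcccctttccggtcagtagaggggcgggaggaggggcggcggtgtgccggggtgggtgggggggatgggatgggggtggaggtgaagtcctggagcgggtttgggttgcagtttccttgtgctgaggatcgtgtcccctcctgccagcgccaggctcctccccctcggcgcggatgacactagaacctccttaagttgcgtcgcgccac

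The Cdx2 window held 1 octamer, the sequence that POU factors such as OCT4 recognise, at 147 to 140 bases before the start, and 1.6% of 32851 mouse promoter windows of this length hold one. It also held 1 CCAAT box at 72 to 68 bases and 1 AP-2 motif at 16 to 8 bases before the start. The Gata3 window held 3 AP-2 motifs, and 13.7% of all windows hold at least 1. The Id2 window held 3 CCAAT boxes and the Eomes window 2, against 33.8% of all windows with at least 1. The letters GGAATG (12.6% of all windows), AGATAA (9.99%) and TATAAA (12.4%) were in none of these 4 windows. No motif overlapped another. A match is a description of the letters and not a bound site.

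Cdx2, the homeobox factor that defines the lineage, ranged over 2.96 log2 units between pools. With lean parents it was 4.34, 5.21, 4.67 and 4.89 in the female arrays 13 to 16 and 4.05, 4.68, 4.61 and 4.05 in the male arrays 1 to 4. With an obese mother it was 4.14, 4.52, 4.12 and 4.32 in females (arrays 17 to 20) and 3.21, 4.95, 4.50 and 4.92 in males (arrays 5 to 8). With an obese father it was 4.52, 6.17, 3.96 and 4.58 in females (arrays 21 to 24) and 4.05, 4.73, 4.53 and 5.77 in males (arrays 9 to 12). The highest pools were female 22 and male 12 of obese fathers and the lowest was male 5 of an obese mother, and every group overlapped the others it was compared with.

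Id2 varied most, over 3.52 log2 units. Its levels were 4.30, 4.85, 5.24 and 5.83 in lean-parent females and 3.37, 5.01, 6.24 and 3.50 in lean-parent males. They were 4.77, 5.41, 4.05 and 4.79 in obese-mother females and 4.69, 5.79, 4.25 and 5.82 in obese-mother males. Obese-father females stood at 4.65, 6.90, 4.68 and 3.83 and obese-father males at 4.87, 5.30, 5.58 and 6.07. Lean-parent males alone held both the second highest of the 24 values and the 2 lowest, and their SD of 1.36 (n = 4) was the largest of any group of any member.

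Eomes, a T-box factor, was 4.17, 4.19, 3.88 and 3.96 in lean-parent females and 4.14, 4.17, 4.68 and 4.31 in lean-parent males. It was 4.64, 3.96, 4.39 and 4.67 in obese-mother females and 4.32, 4.30, 3.97 and 4.44 in obese-mother males. In obese-father pools it was 4.06, 5.08, 4.72 and 4.36 in females and 5.01, 4.69, 4.08 and 5.60 in males. The 3 highest values were all from obese fathers (male 12, female 22 and male 9) and the 2 lowest were lean-parent females. Both obese-father groups also held a value within the range of lean-parent pools of both sexes. Among males alone, obese-father male 11 (4.08) lay below every lean-parent male and the other obese-father males lay above.

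Klf5, a zinc finger factor of both early lineages, had the smallest spread within groups, with a pooled SD of 0.15. It was 4.58, 4.76, 4.80 and 4.76 in lean-parent females and 4.27, 4.48, 4.78 and 4.62 in lean-parent males. It was 5.02, 5.23, 4.81 and 4.73 in obese-mother females and 4.77, 4.61, 4.65 and 4.82 in obese-mother males. Obese-father females stood at 4.72, 4.63, 4.79 and 4.79 and obese-father males at 4.92, 4.70, 4.69 and 4.66. The 2 highest pools were obese-mother females and the 2 lowest were lean-parent males.

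Tead4, the partner of YAP, averaged 5.03 ± 0.27 in lean-parent females, 5.13 ± 0.18 in lean-parent males, 5.11 ± 0.15 in obese-mother females, 5.14 ± 0.21 in obese-mother males, 5.13 ± 0.39 in obese-father females and 4.95 ± 0.02 in obese-father males (SD, n = 4 each). The 4 obese-father males lay within 4.92 to 4.98, whereas obese-father females spanned 4.64 to 5.61. All 4 male values lay inside that span.

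Gata3, a zinc finger factor that acts beside Cdx2, ranged over 0.72 log2 units, from 3.35 in lean-parent female 15 to 4.07 in obese-father female 22. Its group means ran from 3.54 ± 0.08 in lean-parent males to 3.78 ± 0.24 in obese-father females (n = 4 each). Tfap2c, an AP-2 factor, ran from 3.46 in obese-father male 12 to 4.29 in lean-parent female 16, with group means between 3.83 ± 0.07 (obese-mother females) and 4.06 ± 0.22 (obese-mother males). Its paralogue Tfap2a ran from 2.96 in obese-mother female 17 to 4.50 in obese-father female 22, with group means between 3.25 ± 0.22 (obese-mother females) and 3.62 ± 0.63 (obese-father females). The pool with the highest Tfap2a was thus the pool with the second lowest Tfap2c.

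**Figure D1:**
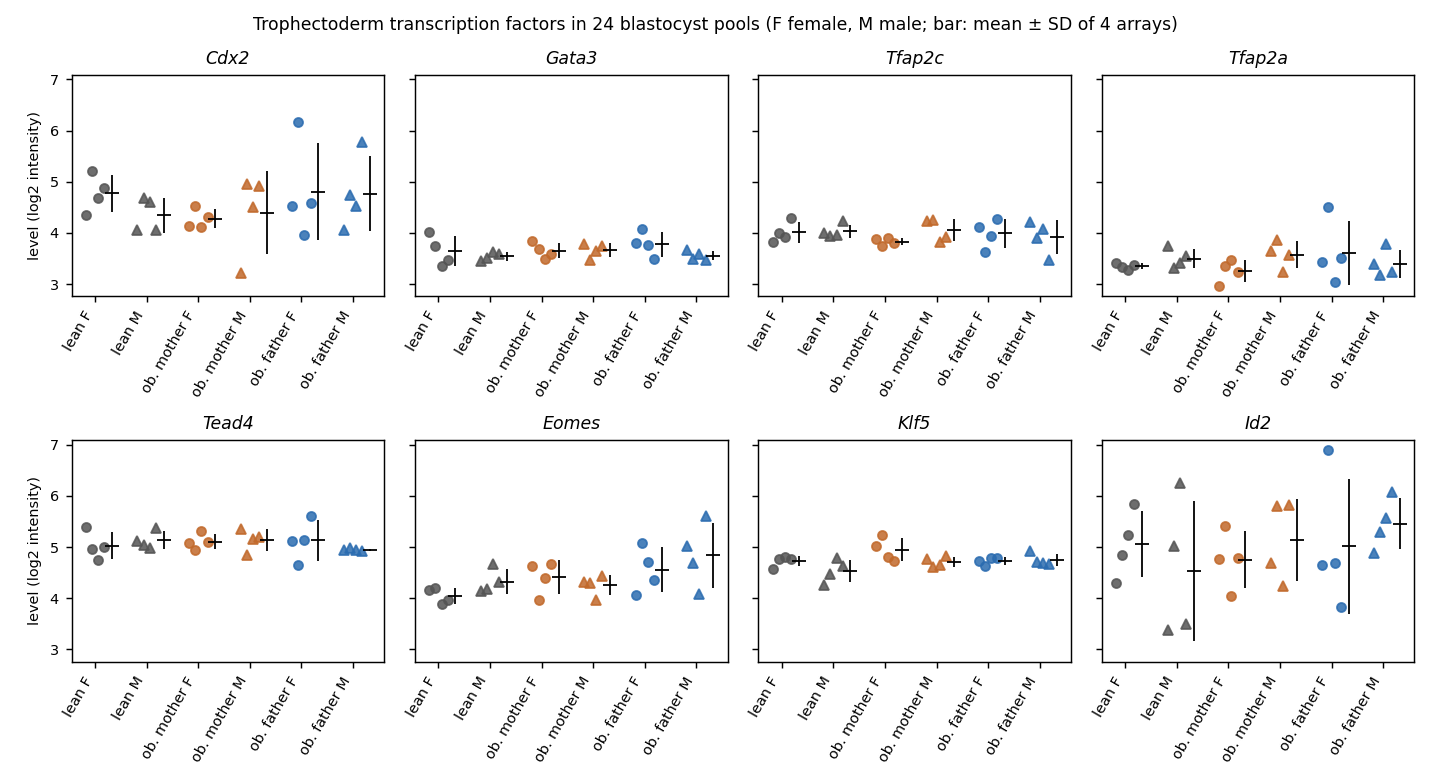
Level of each factor as log2 intensity on the vertical axis, by group on the horizontal axis, with 1 point per array (circles female, triangles male) and a bar for the mean ± SD of 4 arrays. Cdx2 and Id2 range over 2.96 and 3.52 log2 units between pools, Gata3 over 0.72.

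When the 6 group means of each member were put in order, 0 of the 40 pairs of neighbours were separate, that is, the ranges of neighbouring groups overlapped in every case, and over all tested genes 0.215% of such pairs were separate, so the count is near that background. The highest group mean was in obese-father females for Cdx2, Gata3 and Tfap2a, in obese-father males for Eomes and Id2, in obese-mother males for Tfap2c and Tead4, and in obese-mother females for Klf5. Lean-parent pools held the lowest mean of Gata3, Eomes, Klf5 and Id2, obese-mother females that of Cdx2, Tfap2c and Tfap2a, and obese-father males that of Tead4. Differences between the 6 groups held 45.1% of the variance of Klf5 and 37.3% of that of Eomes, against a median of 20.5% over all tested genes, and 10.8% to 19.7% for the other 6 members.

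The first comparison set male blastocysts with an obese father against males whose parents were both lean. Differences were fitted with limma over all 24 arrays and called at an adjusted p (Benjamini-Hochberg over 13311 genes) under 0.05. None of the 8 members was called in this fit, where 0.00751% of all tested genes were, and 0 had an unadjusted p under 0.05, against 14.7% of all genes. Eomes came closest, at 4.84 ± 0.64 against 4.32 ± 0.25 (n = 4 each), a log2 difference of 0.52 (95% interval -0.0018 to 1.04, limma adjusted p = 0.339). Id2 had the largest difference, 0.92 (interval -0.33 to 2.18, adjusted p = 0.424), and Cdx2 stood 0.42 higher (-0.44 to 1.28, adjusted p = 0.58).

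In the same males Klf5 differed by 0.21 (-0.05 to 0.46) and Gata3 by 0.01 (-0.28 to 0.30). Tead4 differed by -0.18 (-0.53 to 0.17), Tfap2c by -0.12 (-0.45 to 0.22) and Tfap2a by -0.10 (-0.56 to 0.36). Members were thus split, 5 above and 3 below 0, with a median of 0.11 beside -0.11 over all tested genes, of which 33.3% were above 0. With quantile-normalized arrays 4 members were above 0 with a median of -0.0003 beside -0.08 over all genes, and with the signal spread described below as a covariate 4 were above 0 with a median of 0.0075 beside -0.02. The obese-father and lean-parent males overlapped for all 8 members, whereas in 8.54% of all tested genes they did not.

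The arrays also differed, though not past the test, in signal spread, defined as the standard deviation of all log2 values on an array, which averaged 1.56 on their arrays and 1.38 on those of lean-parent males (exact two-sided permutation test, n = 4 each, p = 0.114, adjusted p = 0.628 over 6 comparisons). With this spread as a covariate in the limma fit, Eomes differed by 0.27 (adjusted p = 0.871), Cdx2 by -0.31 (adjusted p = 0.847) and Id2 by -0.22 (adjusted p = 0.926), so the signs of Cdx2 and Id2 turned, as did those of Gata3 (-0.04), Tfap2c (0.06) and Tead4 (0.08). The Klf5 difference was 0.18 in that fit. With quantile-normalized arrays instead, Klf5 differed by -0.02 and Tead4 by -0.59 (limma adjusted p = 0.963 and 0.367). Without obese-father male array 12, which has the widest spread among males, the Eomes difference was 0.27 and that of Cdx2 0.09, and without male 11 the Eomes difference was 0.77.

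In the matching comparison of females, no member was called by limma (0% of all tested genes were), 0 had an unadjusted p under 0.05 (2.84% of all genes), and 0 had groups that did not overlap (1.22% of all genes). Eomes stood at 4.56 ± 0.44 against 4.05 ± 0.15 (n = 4 each), a difference of 0.51 (-0.02 to 1.03, limma adjusted p = 1.0). It was nearly the same size as in males, and the difference between the 2 effects was 0.01 (interval -0.72 to 0.75, adjusted p = 0.995). The signal spread of these female groups was 1.47 and 1.46 (exact p = 0.971), and with it as a covariate the Eomes difference was 0.50.

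The other members differed by -0.04 to 0.27 in females. Tfap2a was at the upper end (0.27, interval -0.19 to 0.72), and that value rested on array 22: without the 2 arrays of widest spread, female 22 and male 12 of obese fathers, it was -0.03. In the same fit Cdx2 differed by -0.43 and Id2 by -0.67 in females, against 0.03 and -0.04 with all arrays, and Eomes by 0.33 in females and 0.27 in males. Averaged over the sexes, Eomes differed by 0.51 (interval 0.14 to 0.88), with an unadjusted limma p of 0.00866 and an adjusted p of 0.623, in a comparison where 7.41% of all tested genes had an unadjusted p under 0.05. The averaged difference was 0.38 with the spread as a covariate and 0.30 without those 2 arrays (adjusted p = 0.997 and 1.0).

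**Figure D2:**
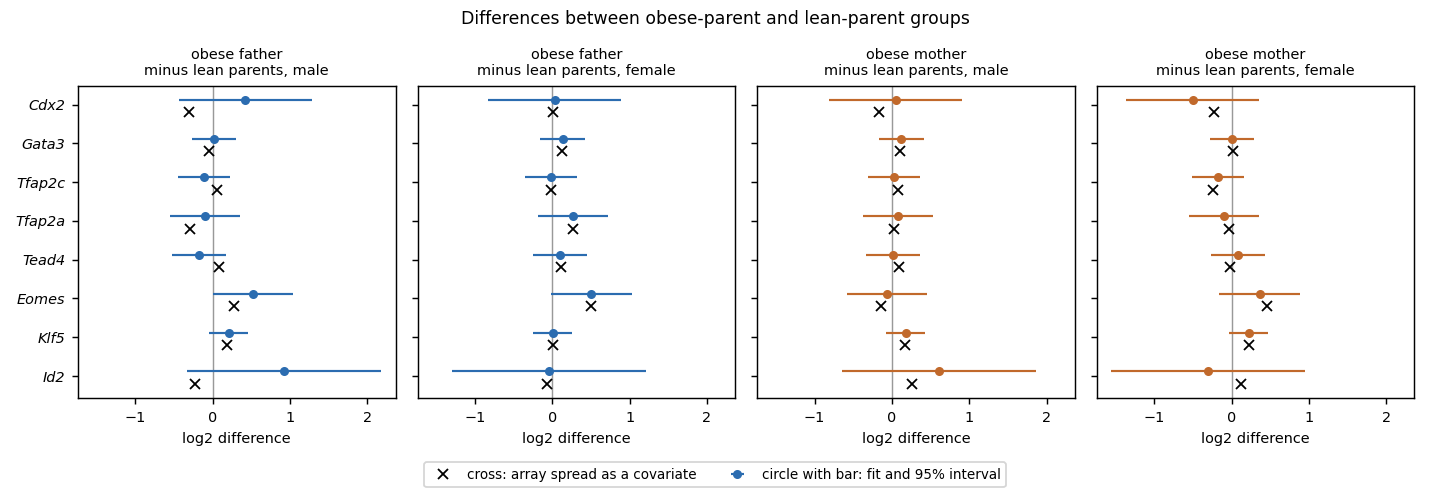
Difference in log2 level between each obese-parent group and lean parents of the same sex on the horizontal axis, with the limma fit and its 95% interval (circles with bars) and the fit with the signal spread of the array as a covariate (crosses), for each factor on the vertical axis. All intervals include 0, and Cdx2, Gata3, Tfap2c, Tead4 and Id2 in obese-father males change sign with the covariate. So do Cdx2 in obese-mother males and Tead4 and Id2 in obese-mother females.

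Blastocysts of obese mothers were compared with those of lean parents. In males 0 members were called by limma (0% of all tested genes) and 0 had an unadjusted p under 0.05 (1.7% of all genes), with differences from -0.07 (Eomes) to 0.60 (Id2, interval -0.65 to 1.86), 7 of them above 0 (46.1% of all genes were) and a median of 0.06 beside -0.01 over all genes. With quantile-normalized arrays 4 members were above 0 and their median was 0.03. The Id2 difference depended on single lean-parent males, at 0.22 without male 1, 0.26 without male 4 and 1.17 without male 3, and was 0.26 with the signal spread as a covariate. In females the counts were again 0 called (0% of all genes) and 0 at an unadjusted p under 0.05 (2.19% of all genes). Eomes differed in these females by 0.36 (interval -0.16 to 0.88, limma adjusted p = 0.999). Both pairs of groups overlapped for all 8 members, while 1.4% of all genes in males and 2.53% in females did not overlap. These comparisons use the same lean-parent arrays as those above. Klf5 was 4.95 ± 0.22 against 4.73 ± 0.10 in females (n = 4 each, difference 0.22, interval -0.03 to 0.47, limma adjusted p = 0.999) and 4.71 ± 0.10 against 4.54 ± 0.22 in males (0.18, interval -0.08 to 0.43). Averaged over the sexes its difference was 0.20 (0.02 to 0.38, unadjusted p = 0.033, adjusted p = 1.0), and 1.52% of all tested genes had an unadjusted p under 0.05 there.

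Cdx2 stood in females of obese mothers at 4.28 ± 0.19 against 4.78 ± 0.36 (n = 4 each), but the difference of -0.50 had an interval of -1.36 to 0.36 and did not pass (limma adjusted p = 0.999). In males the Cdx2 difference was 0.05 (-0.81 to 0.91). The difference between these 2 effects was 0.55 (-0.66 to 1.76, adjusted p = 1.0). With the signal spread as a covariate the Cdx2 values were -0.23 in females, -0.17 in males and 0.06 for the difference between the effects, which was 0.95 without obese-mother male 5 and 0.37 without male 6. Over all members, 0 were called for a difference between the sexes in the effect of either parent (0% of all genes). At an unadjusted p under 0.05 there were 0 members for both, against 7.54% of all genes for the obese father and 2.58% for the obese mother. Intervals were narrowest for Klf5 and Gata3, where differences beyond 0.47 and 0.42 log2 units lay outside the intervals of all 4 comparisons with lean parents, and widest for Id2, where up to 2.18 lay inside.

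Obese mothers were also set against obese fathers. In males Eomes was 4.26 ± 0.20 against 4.84 ± 0.64 (n = 4 each), a difference of -0.58 (interval -1.10 to -0.06), with an unadjusted limma p of 0.0297 and an adjusted p of 0.573. It was the 1 member of 8 at an unadjusted p under 0.05, where 8.35% of all tested genes were and 0.00751% were called. Without obese-father male 12 the Eomes difference was -0.33 (adjusted p = 0.965). In the fit with the spread covariate it was -0.41 (adjusted p = 0.87). The comparison shares its obese-father arrays with the comparison to lean parents above. Groups overlapped for all 8 members, where 6.84% of all genes in males and 1.6% in females did not. In females 0 members were called (0% of all genes) or at that level (3.25% of all genes), and the members differed by -0.53 (Cdx2) to 0.22 (Klf5), and the Cdx2 value was -0.08 without obese-father female 22 and -0.81 without female 23. The Eomes difference in females was -0.14 (interval -0.66 to 0.38). Between the sexes, no member was called for any kind of parents (0%, 0% and 0.00751% of all genes with lean parents, an obese mother and an obese father), and 0 had an unadjusted p under 0.05 (3.37%, 1.41% and 5.42%). All groups overlapped for all 8 members (2.19%, 1.66% and 2.04% of all genes did not), and averaged over parents 0 members had an unadjusted p under 0.05 (2.17%). The largest differences, male minus female, were -0.52 for Id2 with lean parents, 0.38 for Id2 with obese mothers and 0.44 for Id2 with obese fathers. With the signal spread as a covariate these were 0.03, 0.16 and -0.12, and when 1 array was left out they ran from -1.09 to -0.14, from 0.15 to 0.68 and from 0.05 to 1.07. The extremes came without lean-parent males 3 and 1, without obese-mother female 19 and male 7, and without obese-father females 24 and 22. The Klf5 difference was -0.19 with lean parents (interval -0.45 to 0.06), -0.24 with obese mothers (-0.49 to 0.02) and 0.01 with obese fathers (-0.24 to 0.27).

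Between pools, members fell into those that moved with the signal spread of the array and those that did not. Over 24 arrays the level of Id2 had a Pearson r of 0.892 with the spread and a Spearman rho of 0.894 (both with a permutation p = 1e-05, which is the smallest these permutations can give, adjusted p = 4e-05 over the 8 members), and Cdx2 at 0.834 and 0.761 (permutation p = 1e-05 and 3e-05, adjusted p = 4e-05 and 8e-05). Tead4 ran the other way, at -0.809 and -0.863 (permutation p = 2e-05 and 1e-05, adjusted p = 5.33e-05 and 4e-05). When the 2 arrays of most extreme spread were left out, r became 0.874 for Id2, 0.64 for Cdx2 and -0.809 for Tead4. The spread is computed from the same arrays, so these p-values do not test an independent link. The part of RNA quality in the spread was not tested. Taken as deviations from group means, the levels gave r of 0.894, 0.844 and -0.817.

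For Eomes (r = 0.516, rho = 0.26, permutation p = 0.0107 and 0.219, adjusted p = 0.0214 and 0.355) and Tfap2c (r = -0.496, rho = -0.258, permutation p = 0.0135 and 0.222, adjusted p = 0.0216 and 0.355) the relation rested on 2 arrays, since without female 22 and male 12 of obese fathers r was 0.056 and -0.103. Tfap2a (r = 0.344, rho = -0.111, permutation p = 0.101 and 0.603), Gata3 (r = 0.177, rho = -0.024, permutation p = 0.409 and 0.915) and Klf5 (r = 0.113, rho = 0.078, permutation p = 0.586 and 0.714) did not pass, with adjusted p from 0.135 to 0.915, and r without the 2 arrays was -0.052, -0.085 and 0.348. The spread accounted for 79.5% of the variance of Id2, 69.6% of that of Cdx2 and 65.5% of that of Tead4, for 1.29% and 3.14% of that of Klf5 and Gata3, and for a median of 34.2% over all tested genes.

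**Figure D3:**
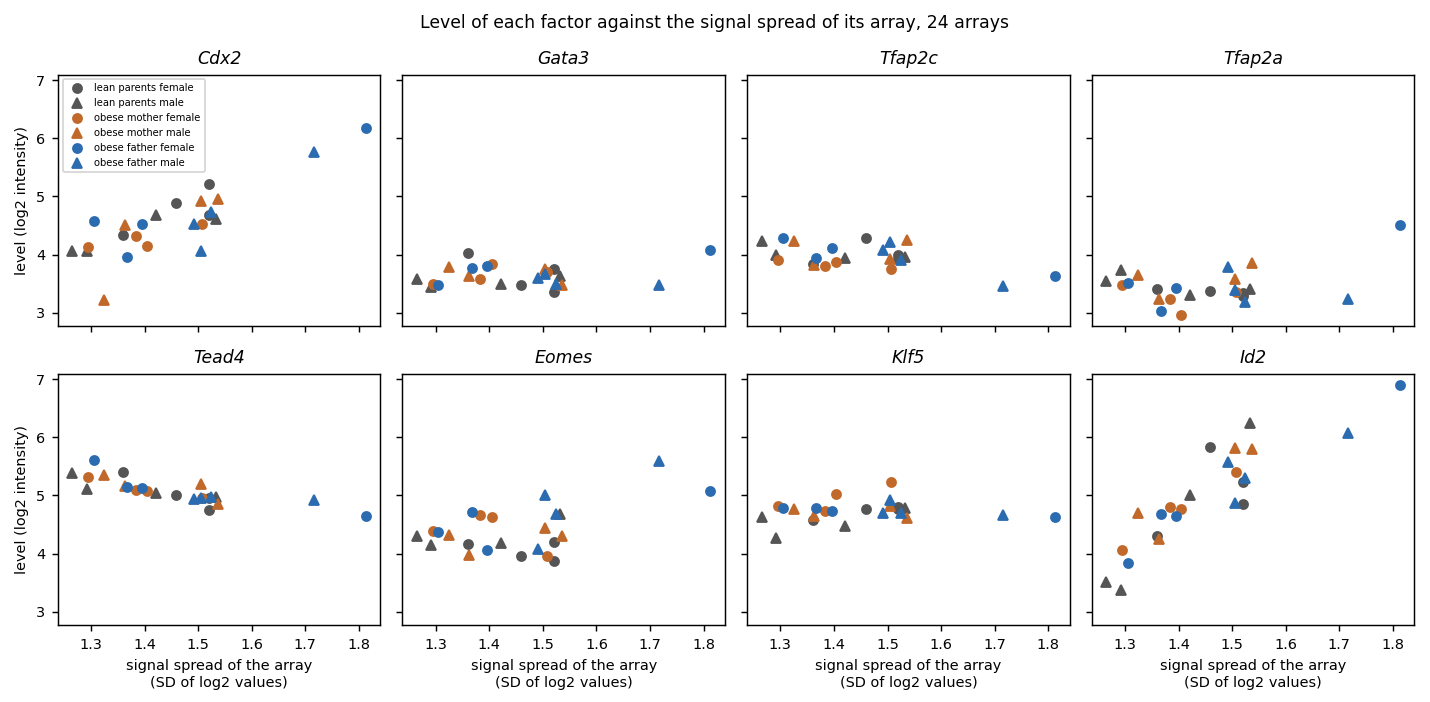
Level of each factor as log2 intensity on the vertical axis against the signal spread of its array (standard deviation of all log2 values) on the horizontal axis, with 1 point per array coloured by parents and shaped by sex. Id2 and Cdx2 lie along a rising band, Tead4 along a falling one (r = 0.892, 0.834 and -0.809), and the 2 rightmost points are female 22 and male 12 of obese fathers.

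Among the 28 pairs of members, 3 had a correlation of levels with an adjusted p under 0.05. Cdx2 and Id2 ran together (r = 0.68, rho = 0.717, permutation p = 0.00031 and 0.00014, adjusted p = 0.00434 and 0.00196), whereas Tead4 ran against Id2 (r = -0.735, rho = -0.75, permutation p = 5e-05 for each, adjusted p = 0.0014 for each) and against Cdx2 (r = -0.584, rho = -0.564, permutation p = 0.00316 and 0.0048, adjusted p = 0.0295 and 0.0448). Without the 2 arrays farthest from the median of the first gene named in each calculation, r was 0.645 for Cdx2 with Id2, -0.637 for Tead4 with Id2 and -0.389 for Cdx2 with Tead4. After group means and the spread were removed from both genes, these values were -0.29, -0.04 and 0.33, so the values for Cdx2 with Id2 and with Tead4 turned their sign. Of all pairs the highest value was then 0.47, between Tead4 and Eomes, and the lowest -0.45, between Cdx2 and Klf5.

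**Figure D4:**
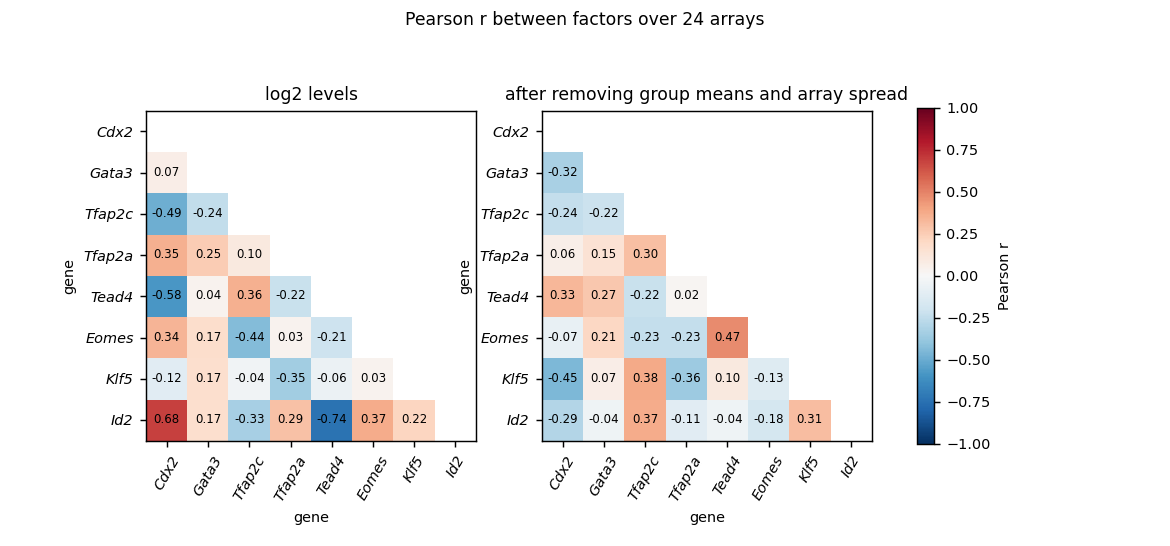
Pearson r between the levels of each pair of factors over 24 arrays (genes on both axes, colour from -1 to 1), for log2 levels at left and after removing group means and the signal spread of the array at right. The values for Cdx2 with Id2 (0.68) and Tead4 with Id2 (-0.74) at left become -0.29 and -0.04 at right.

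The genes whose pattern over the 24 arrays was most like that of a member, by Pearson r as a description, differed from member to member. For Id2 they were Rps3 (0.955), Txnl1 (0.947) and Rps14 (0.938), genes for 2 ribosomal proteins and a thioredoxin-like protein, and for Cdx2 they were Vdac1 (0.899), Pank3 (0.89) and Fau (0.884). For Tead4 they were Amer3 (0.891), Gabra6 (0.882) and Gm10610 (0.877). Eomes was most like Cdk8 (0.818), Serinc1 (0.781) and Creld2 (0.769), Tfap2a like Mrps31 (0.764), Efhc2 (0.76) and Ube2d1 (0.758), Tfap2c like Thnsl2 (0.73), Chgb (0.722) and Shkbp1 (0.715), and Gata3 like Scfd1 (0.703), Idh3g (0.701) and Dnttip1 (0.688). Klf5 had the lowest top values, with Tnrc6a (0.552), Mapkapk5 (0.54) and Arglu1 (0.531). No member was among the 3 most like another member.

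After group means and the spread were removed, Rps3 stayed among the 3 most like Id2 (0.799), with Nt5c1a (0.826) and Plekhf2 (0.781). For Cdx2 the genes were then Srgap2 (0.724), Twsg1 (0.7) and Clcn6 (0.694), for Tead4 Mien1 (0.822), Vwa8 (0.817) and Cpne9 (0.804), and for Eomes Alg5 (0.791), Rmnd5b (0.786) and Ccdc60 (0.742). Efhc2 stayed for Tfap2a (0.802, with Usp4 at 0.812 and Arhgef40 at 0.795) and Shkbp1 for Tfap2c (0.735, with Dync1li2 at 0.706 and Olfr54 at 0.703). Gata3 was most like Pde4dip (0.789), Pogk (0.786) and Fam167a (0.783), and Klf5 like Zfp617 (0.795), Fam50b (0.785) and Klhl26 (0.781).

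The genes around these factors were read from fixed lists, and none of their tested members was called by limma in any comparison. Of the upstream Hippo, Notch and polarity genes 20 of 24 were tested, and in obese-father males 8 were above and 12 below 0, with a median of -0.10 and 2 higher and 2 lower at an unadjusted p under 0.05 (4.3% and 10.4% of all genes). Over all tested genes 33.3% were above 0 in these males, with a median of -0.11. The polarity gene Pard6b differed by 0.61, the receptor gene Notch2 by -0.46 and the kinase gene Rock1 by 1.39 (limma adjusted p = 0.316 for each). Of the trophectoderm products and later trophoblast genes 23 of 26 were tested, 17 above 0 with a median of 0.28. At an unadjusted p under 0.05, 7 were higher and 0 lower (4.3% and 10.4% of all genes). Among them were Lcp1 (1.70), which bundles actin, Tspan8 (2.41), a tetraspanin, and Cldn4 (0.81), a claudin of tight junctions, each at a limma adjusted p of 0.316, while the keratins took both signs, with Krt18 at 1.16, Krt7 at 0.28, Krt8 at 0.27 and Krt19 at -0.37. Hand1 (-0.38) and Plac1 (-0.37), a factor and a surface protein of later trophoblast, were among the 6 below 0. The signal spread of these arrays averaged 1.56 against 1.38, and its part in the values of the lists was not tested. In obese-father against lean-parent females, Lcp1 differed by 0.41, Tspan8 by -0.40, Cldn4 by 0.21 and Rock1 by -0.21. Krt18 differed there by 0.25 and Krt8 by 0.62. The smallest unadjusted limma p among the trophectoderm products in females was 0.068, for Fgfr2.

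Paralogues of the members, which have related proteins but mostly other sites of action, had 21 of 23 tested in obese-father males, 6 above and 15 below 0, with a median of -0.19. Over all tested genes 33.3% were above 0, with a median of -0.11. The family members Tead1 (0.19), Tead2 (-0.22) and Tead3 (-0.14) took both signs. So did the GATA family, with Gata2 (0.17), which acts with Gata3 in trophoblast, Gata4 (0.31) and Gata6 (0.17) above 0 and Gata5 (-0.35) and Gata1 (-0.04) below. Of the KLF genes Klf2 (0.30) and Klf6 (0.28) were above 0 and Klf4 (-0.19) and Klf3 (-0.36) below. Id1 (-0.29), Id3 (-0.14) and Id4 (-0.07) were below 0 in the fit without covariates. The sign of Id2 depended on the spread covariate, and the fit with it is not given here for these paralogues. Of the 21 tested, Cdx1 (-0.45) and Klf3 were lower at an unadjusted p under 0.05, as were 10.4% of all tested genes. Limma adjusted p-values of these named paralogues ran from 0.326 to 0.886. Krt7, Krt19, Hand1, Plac1, Gata1, Gata5, Klf2, Klf6 and Id4 were named after their values were seen.

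Of the inner cell mass and epiblast genes 15 of 16 were tested in obese-father males, 8 above 0 with a median of 0.12. Over all tested genes 33.3% were above 0. Pou5f1, which encodes OCT4, differed by 1.73 (SE 0.73, limma adjusted p = 0.316) and in obese-mother males by 1.53 (adjusted p = 1.0), comparisons that share the lean-parent males. In females Pou5f1 differed by 0.34 with obese fathers and by 0.28 with obese mothers (SE 0.73 for each). Nanog differed by 0.30 and Sox2 by 0.29 in obese-father males, Esrrb by -0.45 and Fgf4 by -0.28. Primitive endoderm genes had 13 of 14 tested, 7 above 0 with a median of 0.05, among them Sox7 (-0.57), Lamb1 (0.35) and Pdgfra (0.30). In these bulk pools, fewer cells of a type and less RNA per cell cannot be told apart.

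As a check of the tissue, the trophectoderm keratins Krt8 (7.05 ± 0.76) and Krt18 (6.34 ± 0.86, SD, n = 24 each) lay above the table's median (2.56) on all 24 arrays. The inner cell mass gene Pou5f1 (2.65 to 8.29) did too, but its lowest value was near that median, so the check is weak for that array. Of markers of other cells with a value, 3 of 9 blood and leukocyte genes and 4 of 9 uterine and oviduct genes were bright enough to be tested. So were 7 of 10 oocyte genes and 8 of 12 cumulus and granulosa genes, and 13311 of all 19938 genes. The oocyte and cumulus shares were near that of all genes, so they do not show these markers to be low. The mean log2 level of these marker lists per array ran from 1.95 to 2.53 for blood, 2.10 to 2.78 for uterus and oviduct, 2.17 to 2.96 for the oocyte and 2.34 to 3.02 for cumulus cells. In obese-father males against lean-parent males, 33.3% of all tested genes were above 0, with a median of -0.11. The median of all values on an array was 2.43 to 2.55 in these obese-father males and 2.51 to 2.65 in the lean-parent males. Of the 22 tested genes of these 4 lists 0 were above 0, with medians of -0.29, -0.21, -0.25 and -0.35, and Inhba (-0.64), Amh (-0.53) and Mos (-0.55) among them. Their mean level in these 2 groups was 2.18 and 2.37 for blood, 2.34 and 2.55 for uterus and oviduct, 2.49 and 2.72 for the oocyte and 2.59 and 2.82 for cumulus cells. Their part in the values of the 8 members was not tested. The mean of all values on an array ran from 2.82 to 2.86 and its signal spread from 1.27 to 1.81, and the number of arrays limits the precision.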

How the data were processed

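Per the submitters' processing notes, the authors made the deposited log2 intensities with RMA and the affy package; no version or build is given in the sources used here. There were 35556 probe sets on each of 24 arrays, 0 missing values and 0 identical arrays. The arrays do not share 1 distribution.

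Probe sets with 1 symbol in GEO's platform annotation (21789) gave 19938 genes, using the set with the highest mean. Testing required a value above the table's median (2.56) on 4 or more arrays, which left 13311 genes. A linear model with 6 group means was fitted with limma 3.58.1 in R 4.3.3 without covariates, and tested on simulated data. Correlations used 100000 permutations, and array spread exact permutation tests over 4 against 4 arrays, which cannot give a p below 0.0286. The 8 genes, the 10 gene lists and the alternatives were chosen with earlier results of these data known. Of the other lists, genes among the 3 with the smallest p in obese-father males and a few set relatives and markers are named, and for each member the 3 genes with the highest r. Motifs were searched after the data were seen.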

Additional observations from a re-analysis of the deposited data

Results flagged for a closer look

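In 1 of the 48 sets of 4 arrays (8 genes in 6 groups), a value stood far from the other 3, and chance alone flags about 1 set in 20. Klf5 was 4.92 in obese-father male 9, while the other 3 arrays of that group lay between 4.66 and 4.70. The gap was 0.847 of the group's range, above Dixon's 95% critical value for 4 values. Without this array the Klf5 difference between obese-father and lean-parent males was 0.15, against 0.21 with it.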

How the results depend on the processing

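Of 327 recalculated counts of called members, over 14 comparisons, 1 differed from the reported 0. With the first residual component as a covariate, Id2 passed in obese-father against lean-parent males, so the count was 1 (adjusted p = 0.0274), and 1901 of all genes passed. This covariate is built from the residuals, so it leaves the difference of 0.92 as it was and only shrinks its error. The alternatives were dropping or tightening the filter on dim genes, averaging probe sets per gene, a robust prior with a trend, array weights, median centring, quantile normalization, the array spread as a covariate, the contrast's groups alone, leaving out the 2 widest arrays or each array in turn, and a threshold of 0.10. Outside the residual component fit the lowest adjusted p of any member was 0.151. Of 2504 recalculated differences of single members, 180 turned their sign with no call either way. In obese-father males the Cdx2 difference ran from -0.31 to 0.66 and that of Id2 from -0.22 to 1.49, while Eomes kept its sign in all 19 alternatives (0.27 to 0.77) and also in females (0.33 to 0.67). Eomes kept its sign in obese-mother females as well (0.28 to 0.51). Other members also kept theirs, such as Tfap2a in obese-father males (-0.29 to -0.02) and Gata3 in obese-father females (0.03 to 0.26). No paired analysis was possible because the labels do not tie pools to mothers.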
